A study of Mus musculus with 9 samples.

Results

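The 10 genes described here belong to TGF-beta, activin and BMP signalling: the ligands Tgfb1, Tgfb2, Inhba, Bmp2 and Bmp4, the receptor Tgfbr1, the signal transducers Smad1 and Smad3, the inhibitor Smad7 and the target gene Id1. Every probe of these genes was taken, by gene name, older symbol or RefSeq identifier, which gave 15 probes, 14 of them bright enough to test, out of 20895 genes and 31186 probes tested on the arrays. The study compared L3/L4 dorsal root ganglia (DRG), which hold the cell bodies of sensory neurons, from adult mice 3 days after transection of the sciatic nerve (5 injured arrays) with uninjured DRG (4 arrays). All 9 samples carry the labels cre.neg and jun.wt, so the groups share these genotypes and differ in the lesion. The labels identify no animals, so p-values measure the spread between these samples. Each level is a log2 ratio of the DRG sample (Cy5) over a universal mouse reference RNA (Cy3) on the same array, with no dye swap, and a change is the injured mean minus the uninjured mean of these ratios.

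Ligands of this family bind pairs of type I and type II serine/threonine kinase receptors, and the type I receptor then phosphorylates receptor Smads. TGF-betas and activins act mainly through Smad2 and Smad3, and BMPs through Smad1, Smad5 and Smad9, each with the shared partner Smad4. Smad6 and Smad7 hold the pathway back from inside the cell, and secreted proteins such as follistatin, noggin and chordin hold ligands away from their receptors. In sensory neurons, BMP signalling through Smad1 is known as part of the growth program that follows peripheral axotomy.

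The arrays lay on 3 slides that overlap with injury in large part: uninjured 2, 3 and 4 on slide 1, uninjured 1 with injured 1, 2 and 5 on slide 2, and injured 3 and 4 on slide 3. Median Cy5 intensity ranged from 156 to 238, lowest on injured array 5. The 5 genes of the nerve injury list (Atf3, Sprr1a, Gal, Gap43 and Jun) were all called higher, with a median change of 1.77, and all 8 sensory neuron markers were bright enough to test, 1 of them lower after injury. Skeletal muscle markers stood 2.02 and 3.42 above the uninjured mean on injured arrays 2 and 4, and injured array 5 had the highest red blood cell (1.12), pericyte (0.81), fibroblast (0.74) and endothelial (0.50) marker lists of all arrays, as it had the highest satellite glia (0.43) and sensory neuron (0.15) lists. As these are bulk samples, fewer cells of a type and less RNA per cell cannot be told apart.

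Of the 14 member probes tested, 5 were called by limma at an adjusted p under 0.05, where 23.5% of all probes were called. Counting each gene by its brightest probe, Smad1, Inhba and Tgfb1 were higher after injury (3 of 10 genes, where 11.2% of all genes were called higher), Smad7 was lower (1 of 10, where 13.6% of all genes were called lower), and 6 were not called. The groups of arrays did not overlap for 3 of the 10, against 23.9% of all genes tested. The median change over the 10 was 0.08, beside 0.00 over all genes. The genes were chosen with earlier results of these arrays known, so these shares are a description.

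The promoters of the 3 members called higher are shown because these genes moved in the same direction, as the 250 bases before the RefSeq transcription start on build GRCm38.p6. They are Smad1 (chr8:79399429-79399678, minus strand), Inhba (chr13:16011601-16011850, plus strand) and Tgfb1 (chr7:25686752-25687001, plus strand). Each reads 5′ to 3′ toward the start, and capitals mark GC boxes, GGGCGG on either strand.
Smad1: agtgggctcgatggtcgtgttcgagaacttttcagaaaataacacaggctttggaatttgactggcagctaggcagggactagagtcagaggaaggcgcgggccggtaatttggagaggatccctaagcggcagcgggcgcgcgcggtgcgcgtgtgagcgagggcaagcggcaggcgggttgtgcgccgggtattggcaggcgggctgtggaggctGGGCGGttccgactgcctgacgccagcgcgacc
Inhba: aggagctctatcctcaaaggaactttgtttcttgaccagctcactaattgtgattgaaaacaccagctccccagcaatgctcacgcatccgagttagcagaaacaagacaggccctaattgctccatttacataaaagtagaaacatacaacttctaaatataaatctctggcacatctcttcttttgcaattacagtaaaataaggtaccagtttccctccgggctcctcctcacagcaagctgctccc
Tgfb1: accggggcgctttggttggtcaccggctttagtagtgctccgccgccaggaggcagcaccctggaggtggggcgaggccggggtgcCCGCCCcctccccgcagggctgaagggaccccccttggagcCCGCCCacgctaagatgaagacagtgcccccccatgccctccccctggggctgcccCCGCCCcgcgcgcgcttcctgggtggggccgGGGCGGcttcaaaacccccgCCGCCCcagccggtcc

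None of these 3 windows held the Smad element GTCTAGAC, the Smad box CAGAC, the BMP response motif GGCGCC, the AP-1 motif TGANTCA or the cAMP response element TGACGTCA on either strand. No motif on this list contains another, and they occurred in 0.167%, 42.2%, 9.59%, 6.75% and 1.55% of the 32851 windows of this length in the RefSeq table. The GC box, looked for after the promoters had been read, occurred in 32.7% of all windows, 5 times in that of Tgfb1, once in that of Smad1 and not in that of Inhba. The 3 windows also differed in base composition, with 75.2% G and C for Tgfb1, 63.6% for Smad1 and 43.2% for Inhba, against a median of 52.4%. Of the other members, 4 matched the table: Tgfb2 held CAGAC 2 times, the alternative starts of Tgfbr1 held GGCGCC and CAGAC once each, and Bmp4 and Smad3 held none of the 5. A missing match says only that these letters are not in the window.

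Inhba, which encodes the subunit of activin A, was the ligand among the members that changed most. Its log2 ratio was −2.88, −2.98, −2.93 and −2.79 on uninjured arrays 1 to 4, and −2.00, −1.86, −2.27, −2.01 and −1.98 on injured arrays 1 to 5. Every injured array lay above every uninjured one, and injured array 3 was the lowest of its group. The uninjured mean was −2.89 ± 0.08 (SD, n = 4) and the injured mean −2.02 ± 0.15 (SD, n = 5), so Inhba rose by 0.87 (SE 0.08) or 1.83-fold, with a limma adjusted p of 4.1e-05 and an exact permutation p of 0.00794, the smallest that 5 against 4 arrays can give. Within slide 2, which holds 1 uninjured and 3 injured arrays, the difference was 0.93. The probe lies at chr13:15394279-15394338 in the files' build mm7, in the transcript NM_008380, and no gene models of that build were used here to place it within the transcript.

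Tgfb1, the TGF-beta isoform known for its production by immune cells and platelets, was read on 10 spots per array by a probe at chr7:22478890-22478949 (mm7). Its ratio was −1.90, −1.88, −1.82 and −1.65 on the uninjured arrays and −1.63, −1.35, −1.62, −1.49 and −1.14 on the injured arrays. The groups did not overlap, but uninjured array 4 came close to injured arrays 1 and 3, and injured array 5 was highest. Tgfb1 rose by 0.37 (SE 0.10, adjusted p = 0.0279, exact permutation p = 0.0238). This call was lost in 9 of 25 alternatives, among them leaving out uninjured array 1, 2 or 3 or injured array 2 (limma adjusted p = 0.0618 to 0.0825). Median centring lost it too (0.29, adjusted p = 0.057), as did leaving out both injured arrays with raised muscle markers (0.35, adjusted p = 0.121). It was also lost with slide as a block, where the difference was larger, at 0.53. Macrophage markers moved the same way, with 3 of 9 called higher and none lower, and their mean level relative to the uninjured mean ranged from −0.37 to 0.30 on uninjured and from 0.06 to 1.11 on injured arrays, highest on injured 2 and 5. Their part in the Tgfb1 value was not tested.

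Tgfb2, an isoform made by neurons and glia among other cells, lay the other way. Its ratio was −0.20, −0.50, −0.32 and −0.39 on the uninjured arrays and −0.56, −0.63, −0.60, −0.72 and −0.43 on the injured arrays. Injured array 5 overlapped the uninjured range, and the other injured arrays lay below it. The change of −0.23 (SE 0.08) did not pass the threshold (limma adjusted p = 0.0559). It passed in 4 of 25 alternatives, among them without injured array 5 (−0.27, adjusted p = 0.0238) and without uninjured array 2 (−0.28, adjusted p = 0.034). The others were array weights (−0.30, adjusted p = 0.00842) and the Cy5 channel alone (−0.34, adjusted p = 0.0193). The difference between both isoforms was tested directly: Tgfb1 minus Tgfb2 went from −1.46 ± 0.19 (SD, n = 4) to −0.86 ± 0.17 (SD, n = 5), a shift of 0.60 with an exact permutation p of 0.00794 (0.0238 after Benjamini-Hochberg adjustment over the 3 pairs of members compared).

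The BMP ligands among the members gave no call. Bmp2, best known for its part in bone formation, was dim: its reference channel was above background on 1 of 9 arrays, and its change of −0.09 (SE 0.06, limma adjusted p = 0.311) lay within overlapping groups. Bmp4, a related ligand, ranged from −2.86 to −2.18 (median −2.38) on uninjured arrays and from −2.70 to −1.34 (median −2.35) on injured arrays, with injured array 5 far above the others. Its change was 0.25 (SE 0.25, adjusted p = 0.532), and 0.03 without that array. The difference Bmp2 minus Bmp4 shifted by −0.34, with an exact permutation p of 0.341.

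**Figure D1:**
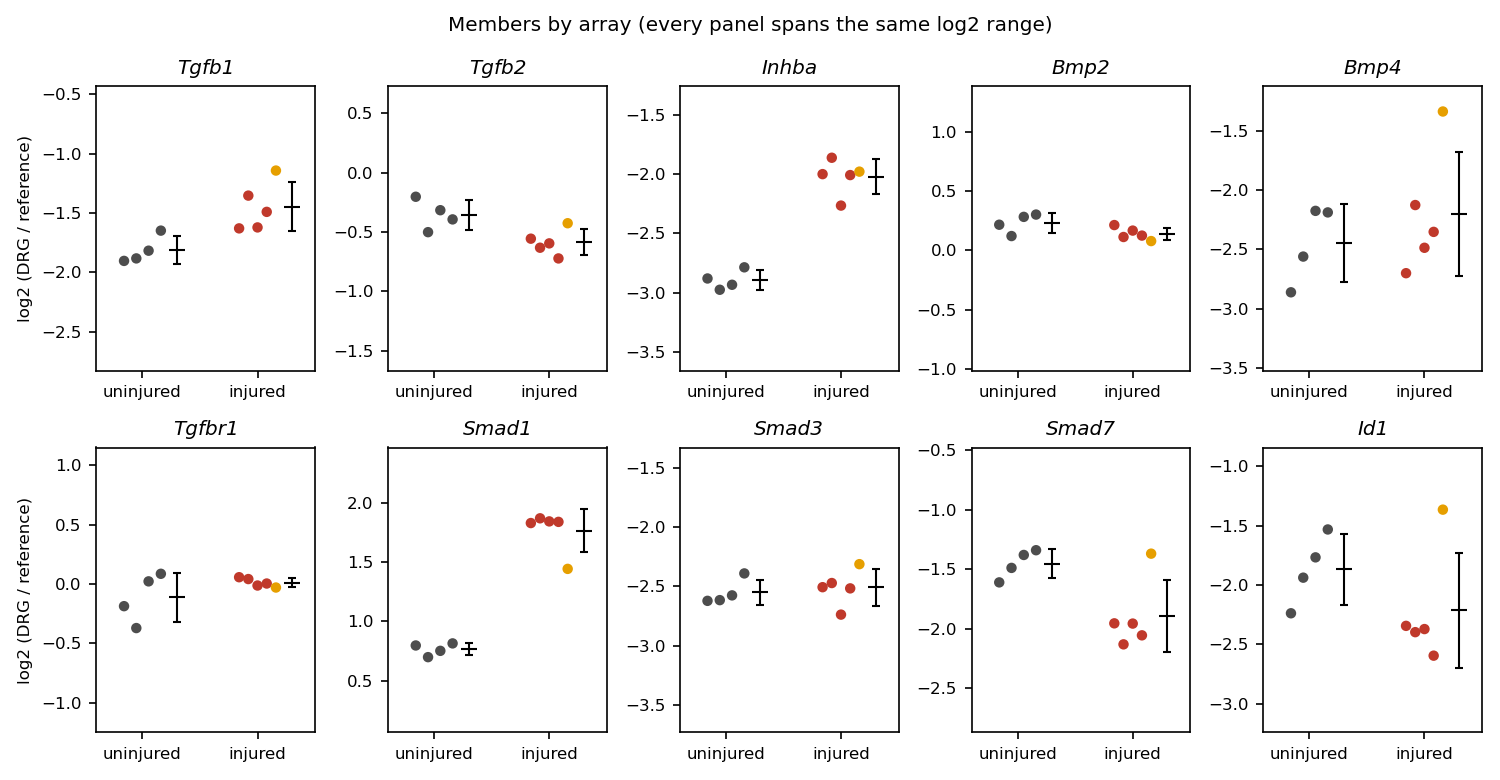
Log2 ratio of DRG over reference RNA (y axis) for the brightest probe of each member, with a point per array (grey uninjured, red injured, orange injured array 5) and the mean ± SD beside the points. Smad1 (0.70 to 0.81 against 1.44 to 1.87) and Inhba (−2.98 to −2.79 against −2.27 to −1.86) separate the groups widely, and injured array 5 stands apart for Smad1, Smad7, Id1 and Bmp4.

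Tgfbr1, the type I receptor for TGF-betas, did not pass the test on either probe. The brighter probe changed by 0.12 (SE 0.09, 95% interval −0.07 to 0.32, limma adjusted p = 0.358) and spread more among uninjured arrays (SD 0.21, n = 4) than among injured arrays (SD 0.04, n = 5). The dimmer probe, above background on 2 uninjured and 3 injured arrays, changed by −0.03 (adjusted p = 0.851).

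Smad1, the receptor Smad of the BMP branch, was the member with the largest change, and both of its probes gave it. The brighter probe read 0.80, 0.70, 0.75 and 0.81 on the uninjured arrays and 1.83, 1.87, 1.84, 1.84 and 1.44 on the injured arrays. The other probe lies close by in the same transcript, NM_008539 (chr8:77879742-77879798 and chr8:77879339-77879398, mm7), and read 0.90, 0.84, 0.80 and 0.79 and then 1.99, 1.93, 1.80, 1.99 and 1.85. No array overlapped between groups on either probe, and the low value of injured array 5 was seen on the brighter probe but not on the other. The changes were 1.00 (SE 0.09, limma adjusted p = 2.9e-05) and 1.08 (SE 0.06, adjusted p = 1.1e-06), which are 2.0-fold and 2.12-fold, each with an exact permutation p of 0.00794. Within slide 2 they were 0.92 and 1.02, and the call held for both probes in every alternative tried.

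Smad3, the receptor Smad of the TGF-beta and activin branch, gave values of both signs that did not pass the test. The brightest probe changed by 0.04 (SE 0.09, 95% interval −0.15 to 0.24, limma adjusted p = 0.781) and another by −0.13 (SE 0.08, adjusted p = 0.297), with overlapping groups on both. The remaining probe was above background in the DRG channel on no array, though in the reference channel on all 9, and was not tested. Set against each other, Smad1 minus Smad3 shifted by 0.96 after injury, with an exact permutation p of 0.0159 (0.0238 adjusted over the 3 pairs).

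Smad7, the inhibitory Smad that blocks type I receptors and is itself a target of TGF-beta and BMP signalling, read −1.61, −1.49, −1.38 and −1.34 on the uninjured arrays and −1.96, −2.13, −1.96, −2.06 and −1.37 on the injured arrays. Injured arrays 1 to 4 lay below every uninjured array, and injured array 5 lay among the uninjured arrays. Smad7 fell by 0.44 (SE 0.14, limma adjusted p = 0.0435, exact permutation p = 0.0397). Without injured array 5 the change was −0.57 (adjusted p = 0.000512). The call was lost when any other array was left out (adjusted p = 0.0563 to 0.111), and within slide 2 the difference was −0.21 (adjusted p = 0.698). The size also moved with the background correction, to −0.22 (adjusted p = 0.501) with normexp on all spots, −0.79 with offset 0 and −1.04 in Agilent's own ratio.

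Id1, an inhibitor of basic helix-loop-helix factors and a direct BMP target, showed the same array pattern without a call. Its brighter probe read −2.24, −1.94, −1.77 and −1.53 on the uninjured arrays and −2.34, −2.40, −2.37, −2.60 and −1.37 on the injured arrays. Injured arrays 1 to 4 lay below every uninjured array, and injured array 5 above all of them. The change was −0.35 (SE 0.23, limma adjusted p = 0.320) and that of the other probe, which overlaps it, −0.33 (adjusted p = 0.302). Without injured array 5 these were −0.56 (adjusted p = 0.0129) and −0.53 (adjusted p = 0.0137), and within slide 2, which holds injured array 5, they had the opposite sign (0.20 and 0.19).

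**Figure D2:**
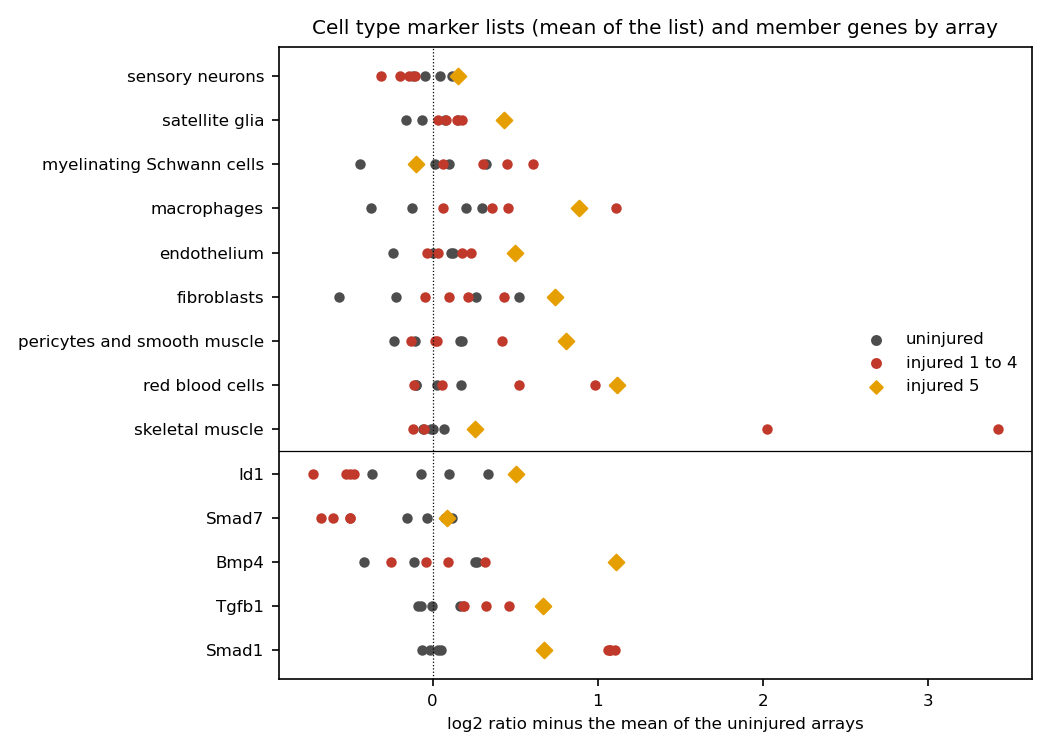
Level by array relative to the mean of the uninjured arrays, in log2 units (x axis), for cell type marker lists (mean of the list, above the line) and 5 members (below it), with grey for uninjured arrays, red for injured 1 to 4 and an orange diamond for injured array 5. Injured array 5 is highest for pericyte (0.81), red blood cell (1.12), fibroblast (0.74), endothelial (0.50), satellite glia (0.43) and sensory neuron (0.15) lists. It is also highest for Id1 and Bmp4, and lowest of the injured arrays for Smad1.

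The values of injured array 5 for Id1, Smad7, Bmp4 and Tgfb1 went with raised vessel, blood and fibroblast marker lists on that array, on which the satellite glia and sensory neuron lists were also the highest of all arrays. Over all injured arrays, 1 of 7 endothelial markers and none of 6 fibroblast, 5 pericyte or 3 red blood cell markers were called. The part of these cells in the Id1 and Smad7 values was not tested.

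**Figure D3:**
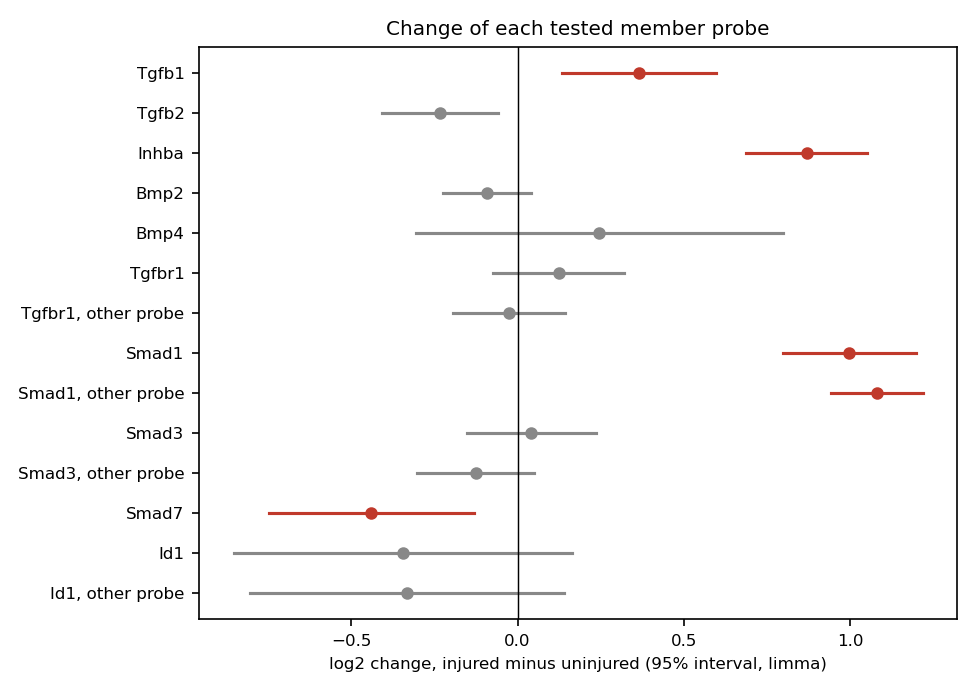
Change of each of the 14 tested member probes (injured minus uninjured, log2, points) with its 95% interval from limma (lines), red where the adjusted p is under 0.05. Both probes of Smad1 lie near 1.0, Inhba at 0.87 and Tgfb1 at 0.37, Smad7 lies at −0.44, and Bmp4 and Id1 have the widest intervals.

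Beyond the members, 87 further genes of the pathway were listed by role, of which 85 had a probe and 77 were tested. Of these, 12 were called higher (15.6%, against 11.2% of all genes), 8 lower (10.4%, against 13.6%) and 57 were not called, and the groups did not overlap for 21 (27.3%, against 23.9%), so the shares lay near those of all genes. Acvr1c and Chrdl2, counted as higher and as not overlapping, passed the filter only through the injured arrays. The median change over the tested genes was 0.11. In every list but the extracellular antagonists and the ligands of both classes, called genes went in both directions.

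Of 10 other TGF-beta, activin and inhibin ligands, 2 were called, both higher. Inhbb, the subunit of activin B, lay between −0.19 and 0.03 on uninjured and between 0.63 and 1.15 on injured arrays, and rose by 0.91 (SE 0.10, limma adjusted p = 0.000116), while its dimmer probe changed by 0.25 (adjusted p = 0.0769). Mstn, or myostatin, a ligand of activin receptors best known from muscle and listed in the files as Gdf8, rose by 0.87 (SE 0.13, adjusted p = 0.000642), with its reference channel above background on no array. The size of this rise depends on the background correction, at 1.68 with a normexp offset of 0 and 2.39 in Agilent's own ratio. Its ratio was 1.37 on injured array 1, where muscle markers stood at −0.06 relative to the uninjured mean, and 1.31 and 1.37 on injured arrays 2 and 4, where they were raised. Without the latter arrays the change was 0.76 (adjusted p = 0.00856). The part of muscle in the Mstn values was not tested. Lefty2, an antagonist-like ligand, changed least (0.02).

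Of 9 other BMP and GDF ligands tested, 1 was called. Gdf1, a ligand of the nodal type whose message is known to also carry the ceramide synthase Cers1, fell from 2.51 ± 0.04 (SD, n = 4) to 1.72 ± 0.10 (SD, n = 5), a change of −0.79 (SE 0.06, limma adjusted p = 1.5e-05). Gdf5 changed least (0.01), and Bmp8b, Bmp10, Gdf2, Gdf3 and Gdf6 were too dim to test, as was Inhbc of the activin ligands.

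Among 15 receptors and co-receptors, 2 were called higher and 2 lower. Acvr1c (ALK7), a type I receptor for activin B and nodal, was above background in 1 of 4 uninjured and all 5 injured arrays. Its brightest probe read 0.14, 0.04, 0.29 and 0.06 and then 1.42, 1.53, 1.40, 1.44 and 0.68, a rise of 1.16 (SE 0.16, limma adjusted p = 0.000403). As the uninjured and reference signals are near background, the size of this rise is not settled, and it was 2.40 with a normexp offset of 0 and 4.06 in Agilent's own ratio. Another probe, well above background on no uninjured array, was called higher after injury (adjusted p = 0.00264) with no size given. Both of these probes passed the filter only through the injured arrays, so their calls are a description. The remaining probe, above background in 3 uninjured arrays, changed by 0.09 (adjusted p = 0.408). Acvr1 (ALK2), a type I receptor for BMPs and activin, rose by 0.85 (SE 0.14, adjusted p = 0.00166), from between −0.82 and −0.48 to between −0.23 and 0.51. Acvr1b (ALK4), the main activin type I receptor, fell by 0.31 (SE 0.05, adjusted p = 0.0022) on the brighter probe and read −0.05 (adjusted p = 0.609) on the other, and its call was lost under median centring (adjusted p = 0.0594). Bmpr1b (ALK6), with its reference channel above background on no array, fell by 0.27 (SE 0.07, adjusted p = 0.0222). This call was lost without uninjured array 1 or 3 or injured array 4 (adjusted p = 0.0559 to 0.0618). It was also lost without both injured arrays with raised muscle markers (adjusted p = 0.066). Bmpr1b read −0.59 with offset 0 and in Agilent's own ratio, neither called. Bmpr1a (ALK3) changed least (−0.06).

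The 5 other Smads gave 2 calls higher and 1 lower. Smad4, the common partner, rose by 0.36 (SE 0.06, limma adjusted p = 0.00103), with 0.05 (adjusted p = 0.845) on its other probe. Smad5 rose by 0.32 (SE 0.07, adjusted p = 0.00759), with 0.18 (adjusted p = 0.0546) on its next brightest probe. Smad9, which shares the BMP branch with Smad1 and Smad5, fell by 0.30 (SE 0.06, adjusted p = 0.00298), with −0.16 (adjusted p = 0.177) on its other probe, and read −0.63 with offset 0 and −0.93 in Agilent's own ratio. The calls of Smad4 and Smad5 were lost under median centring of the arrays in place of loess (adjusted p = 0.304 and 0.257). Smad6, the other inhibitory Smad, read −0.13 (adjusted p = 0.481), with overlapping groups.

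Among 12 extracellular antagonists, 2 were called higher and none lower. Fst, or follistatin, which binds activins and keeps them from their receptors, read −0.22, −0.60, 0.00 and −0.26 on the uninjured arrays and 2.31, 2.21, 1.95, 2.56 and 2.40 on the injured arrays. The groups lay far apart, with uninjured array 3 the highest of the low group, and Fst rose by 2.56 (SE 0.14, limma adjusted p = 6.6e-07), or 5.88-fold. Chrdl2, a chordin-like BMP antagonist, was well above background on no uninjured array and passed the filter only through the injured arrays. It was called higher (adjusted p = 0.0262) with no size given, so this call is a description. The call was lost in 9 of 24 alternatives, among them leaving out uninjured array 1, 3 or 4 or injured array 2 or 4 (adjusted p = 0.0521 to 0.0784). Noggin (Nog) changed least, at 0.00 with a standard error of 0.13.

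**Figure D4:**
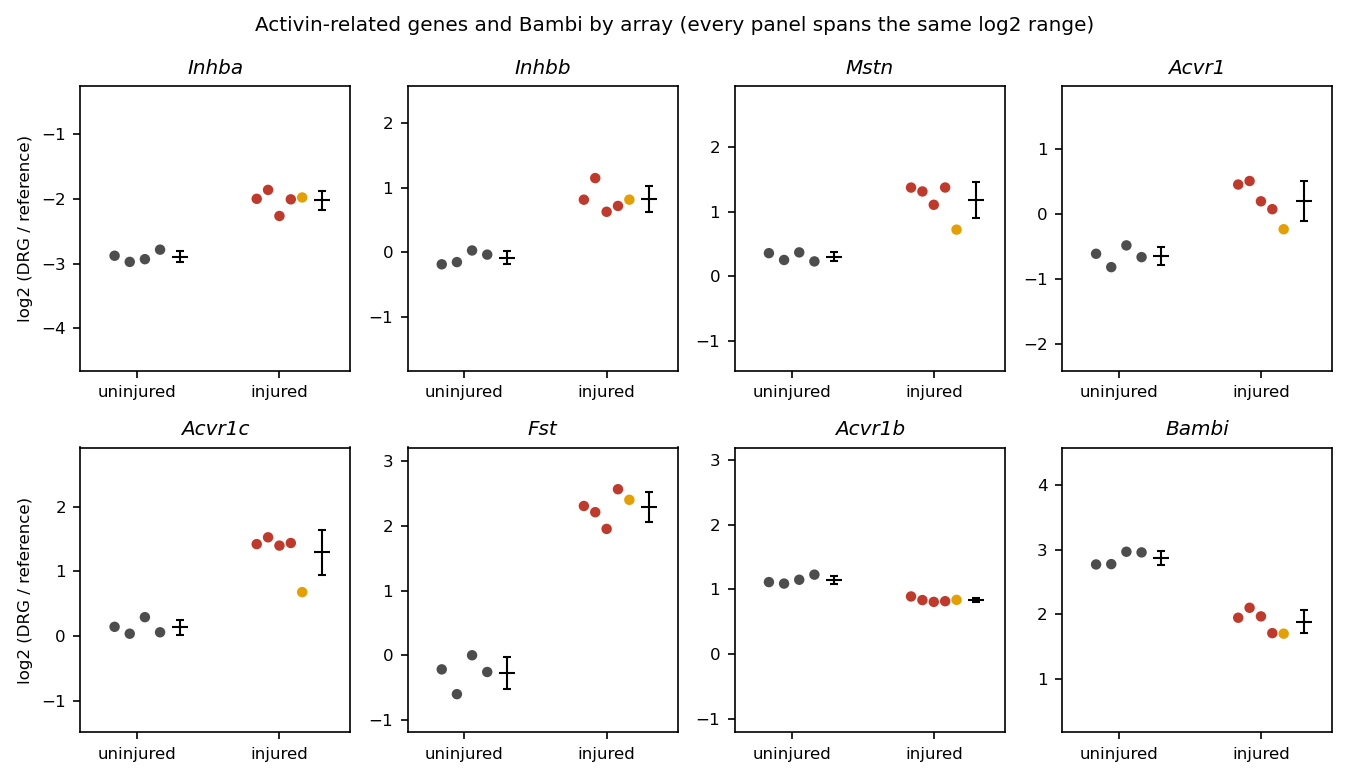
Log2 ratio of DRG over reference RNA (y axis) by array for activin-related ligands, receptors and antagonist and for Bambi, with points as in the plot of members by array and the mean ± SD beside them. All genes drawn had been called, so groups that lie apart in every panel follow in large part from this choice. Activin-related genes that were not called are not drawn. The gap is widest for Fst and narrow for Acvr1b, Mstn, Acvr1 and Acvr1c. Injured array 5 is the lowest injured array for Mstn (0.72), Acvr1 (−0.23) and Acvr1c (0.68).

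Of 9 genes of ligand latency and activation, 1 was called higher and 1 lower, both metalloproteases that cleave chordin. Bmp1 rose by 0.93 (SE 0.19, limma adjusted p = 0.00542) and by 0.58 (SE 0.08, adjusted p = 0.000325) on its other probe, and Tll1 fell by 0.43 (SE 0.07, adjusted p = 0.00152) with its reference channel above background on no array (−1.24 with offset 0 and −1.25 in Agilent's own ratio). The convertase Furin changed least (0.02). Of 8 intracellular or membrane inhibitors, Tgif1, a Smad corepressor listed as Tgif, rose by 0.43 (SE 0.06, adjusted p = 0.000462), and Bambi, a decoy receptor without a kinase domain that is itself induced by BMPs, fell by 0.98 (SE 0.09, adjusted p = 4.5e-05). Bambi read 2.77 to 2.97 on uninjured and 1.70 to 2.10 on injured arrays. The ubiquitin ligase Smurf2 changed least (−0.03).

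The 9 target genes tested did not move in a single direction, with 2 called higher and 2 lower. Cdkn1a, the cell cycle inhibitor p21, which p53 also induces, read −0.73, −1.20, −1.11 and −0.94 on the uninjured arrays and 0.84, 0.66, 0.66, 1.02 and 0.95 on the injured arrays. The groups lay far apart, with every injured array above the reference and every uninjured array below it. Cdkn1a rose by 1.82 (SE 0.11, limma adjusted p = 1.6e-06), or 3.53-fold. Msx1, a homeobox target of BMPs, rose by 0.35 (SE 0.11, adjusted p = 0.0363), with overlapping groups. It differed by 0.02 within slide 2 and lost its call without uninjured array 2, 3 or 4 or injured array 1, 3 or 4 (adjusted p = 0.0518 to 0.0978). In all, 14 of 25 alternatives lost the call, among them median centring (0.27, adjusted p = 0.259) and a normexp offset of 0 (0.41, adjusted p = 0.0713).

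The Id genes other than Id1, which are BMP targets too, gave 2 falls. Id4 fell by 0.73 (SE 0.11, limma adjusted p = 0.000898) and Id2 by 0.62 (SE 0.13, adjusted p = 0.00507), and their other probes by 0.79 and 0.56. For both genes every injured array, injured 5 included, lay below every uninjured array. Id3 changed by −0.02 (adjusted p = 0.940), the least of the targets.

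**Figure D5:**
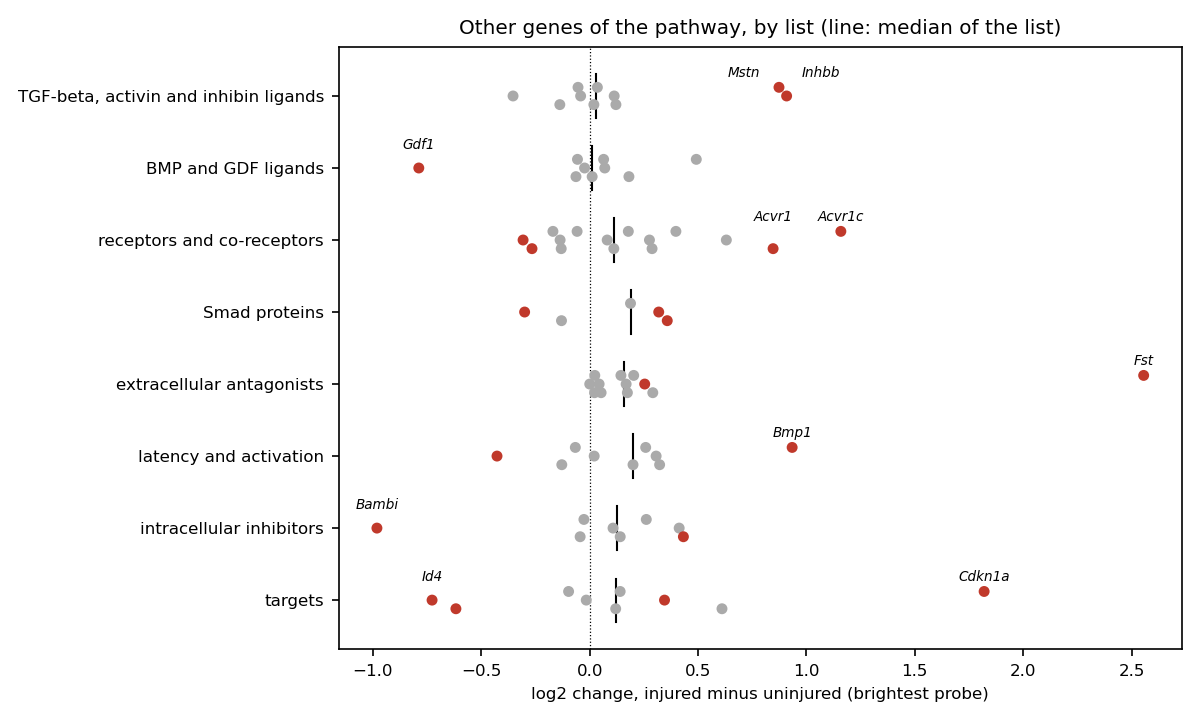
Change after injury (x axis, log2, brightest probe) of the 77 other pathway genes tested, by list (y axis), red where the limma adjusted p is under 0.05, with a line at the median of each list. Fst (2.56) and Cdkn1a (1.82) lie far above the rest, Bambi (−0.98), Gdf1 (−0.79) and Id4 (−0.73) lowest, and the medians of all 8 lists lie between 0.01 and 0.20.

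With slide as a block, 2 members and 6 of the 20 other genes kept their call: Smad1 and Inhba, and Fst, Cdkn1a, Inhbb, Tgif1, Bambi and Gdf1. The other 14 lost it (limma adjusted p = 0.0509 to 0.964), with their direction kept. Slide 1 holds only uninjured and slide 3 only injured arrays. The block fit therefore takes each change from slide 2 alone, which has 1 uninjured array, so the values within slide 2 given above are the same check. With the block the change stayed within 1.5 times the value above for 11 of the 14, among them Acvr1 (0.86), Bmp1 (1.35) and Tll1 (−0.54). It was smaller for Bmpr1b (−0.18), Id2 (−0.35) and Msx1 (0.02).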

How the data were processed

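RNA from L3/L4 DRG was hybridised to 2-colour Agilent arrays. The deposited scanner files give each spot's mean intensity and the median intensity around it in both channels, extracted with Agilent Feature Extraction 10.5.1.1. The log10 ratios in the same files are, per the file headers, Agilent's own dye-normalized ratios. The authors' processed table holds log2 ratios of Cy5 over Cy3. The last 2 served as alternatives.

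In R 4.3.3 with limma 3.58.1, spots flagged for non-uniform local background were set aside, since 20 of them lay on injured array 2 and reached −9047 below background. Then came normexp background correction (offset 50), within-array loess and averaging of a probe's repeated spots. The filter kept probes whose Cy5 signal was well above background on 4 arrays or more. Probes were named by accession (23082 of 41174), by the symbol in the file (6582), by an older name (3073) or kept the name in the file (8437). Slopes against the authors' values were 1.005 to 1.014.

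Groups were compared by lmFit and eBayes over all 31186 probes, with Benjamini-Hochberg adjustment and a threshold of 0.05, and probe by probe with a two-sided exact permutation test over all splits of the arrays. Genes count by their brightest probe. The members, lists and tests were chosen with earlier results of these data known. The genes named are all members and, in each list, up to 3 called genes each way and the gene that changed least. Some genes of the pathway are not reported here. Promoters are RefSeq's. Tested on simulated data with 200 changed of 31186 probes, the procedure recovered 93% of changes of 1 and 59% of changes of 0.5 in log2 units, and 6.17% of its calls were false. In the real data 7338 probes were called, far more than were changed there, so these shares need not carry over. Alternatives changed the background correction, normalization, filter, slide block, array weights, probe choice, test and threshold, or left out each array in turn, and leaving out both arrays with raised muscle markers was added after the data were seen. The study's results text names 24 hr after injury, and its methods and the labels 3 days. That text also names L4 DRG, where the methods name L3/L4. A figure legend names nerve crush and groups of equal size, where the methods name transection and the groups of arrays differ in size. Figures were drawn with matplotlib 3.10.9. The number of arrays limits the precision.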

Additional observations from a re-analysis of the deposited data

Results flagged for a closer look

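In 7 of 110 groups of arrays examined, 1 array lay further from the rest than Dixon's 95% limit allows, where chance flags about 1 in 20, and in all 7 it was injured array 5. Among members, its log2 ratio was 1.441 for the brighter Smad1 probe (others 1.83 to 1.87), −1.369 for Smad7 (others −2.13 to −1.96), and −1.365 and −1.124 for the probes of Id1 (others −2.60 to −2.34 and −2.18 to −2.03). Among other genes, it was 0.6797 for Acvr1c (others 1.40 to 1.53), −0.4768 for Smad5 (others −0.70 to −0.65) and 0.7214 for Bmp1 (others −0.24 to −0.10). That array had the lowest median Cy5 intensity (156) and the highest pericyte and red blood cell marker lists, as well as the highest satellite glia and sensory neuron lists. The part of these cells in the values was not tested. Without it, Acvr1c, Smad5 and Bmp1 changed by 1.31, 0.28 and 0.75, all still called higher by limma. The Acvr1c probe passed the filter only through the injured arrays, so its call is a description and its size is not settled.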

How the results depend on the processing

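The calls of Smad1, Inhba, Inhbb, Fst, Bambi, Gdf1 and Cdkn1a, and the direction of every called gene named, were the same in every alternative run. The main setting called 7338 probes, and separate fits called 3521 under median centring, 1507 with slide as a fixed block, 1626 when a change above 1.5-fold was also asked for, and 4038 without both arrays with raised muscle markers. The members called numbered 4, and 2 with slide as a fixed block, under the methods' t-test, above 1.5-fold, and without both muscle-marker arrays, in each case Smad1 and Inhba. The other pathway genes called numbered 20, and 6 with slide as a block and 11 above 1.5-fold. Leaving out an array in turn gave 5358 to 7487 probes, 2 to 6 members (2 without uninjured 1 or 3 or injured 2, 6 without injured 5) and 17 to 24 other genes. Slide as a random block called 10335 probes, with an estimated correlation of −0.20. The 3 differences between members, recomputed under other background corrections and normalizations and without each array, kept their side of the threshold. The fixed block takes each change from the arrays of slide 2 alone. The cause of the other shifts was not tested.

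The values that crossed 0 were all of genes not called. Nog gave −0.0313 with normexp on all spots, −0.0101 without background correction, −0.0597 with offset 0, −0.112 with Agilent's own ratio, −0.0631 under median centring, −0.0232 with slide as a random block and −0.0372 with array weights. Gdf5 gave −0.00207 without background correction, −0.0428 with offset 0, −0.0601 with Agilent's own ratio, −0.0303 under median centring, −0.0245 for the Cy5 channel alone and −0.0430 with array weights. The dimmer Tgfbr1 probe gave 0.0638 without background correction, 0.277 with Agilent's own ratio, 0.00320 under median centring, 0.0160 for Cy5 alone and 0.00821 with array weights. Median centring turned Furin (−0.0663) and Smad3 (−0.0366), and array weights Furin (−0.00642) and Smurf2 (0.00904). Slide as a block turned Id1 (0.203 and 0.185 on its probes), Id3 (0.173), Smad6 (0.215) and Lefty2 (−0.0851), without both muscle-marker arrays Id3 was 0.0378 and Lefty2 −0.020, and the authors' values gave Lefty2 −0.00396. Leaving out an array in turn gave −0.102 to 0.0954 for Nog, −0.0537 to 0.105 for Gdf5, −0.0912 to 0.0418 for Id3, −0.0220 to 0.0529 for Lefty2, −0.0612 to 0.0177 for the dimmer Tgfbr1 probe, −0.0102 to 0.0445 for Furin, −0.0073 to 0.0990 for Smad3 and −0.0618 to 0.0442 for Smurf2. No paired analysis was possible because neither animals nor replicate numbers tie injured to uninjured arrays. The paper's methods for nerve crush took ganglia of the uninjured side as controls, so injured and uninjured arrays may share mice. If so, the arrays are not all independent, and the unpaired p-values do not account for it.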
